A study of Mus musculus with 12 samples.

Results

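Of 6 Arf6 wild-type melanoma tumors from mice, 3 carried far more skeletal muscle RNA than the other 3, with higher transcripts of the fast fibre, the sarcomere frame and calcium release. The sets were chosen by a skeletal muscle score, the mean of log2(CPM + 1) over Ckm, Acta1, Myh4, Mylpf and Tnnt3, where CPM is the count of a gene per 1000000 counts of its library. Wild-type tumors 3, 4 and 5 had the highest scores and are called muscle-rich, and wild-type tumors 1, 2 and 6 are called muscle-poor. These are 6 of the 12 libraries of a bulk RNA sequencing study, and tumors are numbered in accession order. The wild-type tumors have the genotype BrafCA;Cdkn2af/f, and the other 6, the Arf6-null tumors, have BrafCA;Cdkn2af/f;Arf6f/f, so that all 12 share the Braf and Cdkn2a alleles. The Cre driver, the body site, the age and sex of the mice and any treatment are not given in the labels, nor is it said whether each tumor came from a separate animal. The score is a measured value, so every difference between the 2 sets is a description of 3 libraries against 3 and carries no test.

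Skeletal muscle fibres are long cells filled with sarcomeres, in which myosin filaments pull on actin filaments when calcium is released from the sarcoplasmic reticulum. Fast and slow fibres use different genes for the same parts of this apparatus, and muscle also has its own forms of many enzymes of energy supply. Myogenic factors such as Myod1 and Myog switch these genes on by binding short DNA motifs called E-boxes. Mouse skin lies on a thin sheet of such muscle. In RNA from whole tumors, more fibres and more RNA per fibre cannot be told apart.

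The muscle score was 7.89 in tumor 3, 7.66 in tumor 4 and 8.07 in tumor 5. It was 2.66 in tumor 1, 1.72 in tumor 2 and 4.16 in tumor 6. The lowest muscle-rich tumor and the highest muscle-poor tumor were thus 3.49 apart, and tumor 6 stood above the other muscle-poor tumors. The 6 Arf6-null tumors lay between 0.637 and 3.07, below every muscle-rich tumor. The 5 score genes took 0.152%, 0.113% and 0.168% of the counts of tumors 3, 4 and 5. They took 0.00329%, 0.00163% and 0.0152% of the counts of tumors 1, 2 and 6, so the muscle share was small even where it was highest.

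**Figure D1:**
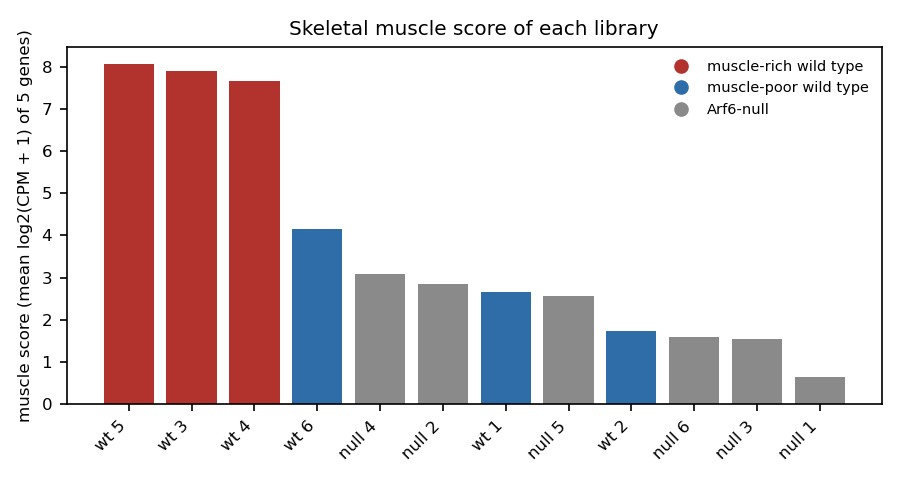
Bars give the skeletal muscle score, the mean log2(CPM + 1) of 5 genes, of each of the 12 libraries in descending order; wt is wild type and null is Arf6-null. The 3 muscle-rich tumors sit between 7.66 and 8.07, and the next library, wild-type tumor 6, is at 4.16.

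Total counts of the wild-type libraries ranged from 22211738 to 30326419, and no 2 of them agreed within sampling noise. Arf6 was at 82.0 to 146 CPM in the wild-type libraries and at 12.1 to 22.99 CPM in the Arf6-null ones. Xist was high in wild-type tumors 3, 5 and 6 and Y-linked transcripts summed to 21.97, 201 and 246 CPM in tumors 1, 2 and 4 and to at most 0.261 CPM in the rest, so neither followed the muscle score. The tissue label is melanoma, and among genes of the pigment cell lineage Mlana had no count in any library, Tyr had 0 to 2 counts and Dct and Tyrp1 had 0 or 1 in the wild-type libraries. Sox10, a transcription factor of pigment cells and Schwann cells, had 0 to 33 counts there, and Pmel had 10 to 39. Not all genes of this lineage were scarce: Mitf was at 9.95 to 28.0 CPM and Gpnmb at 7.565 to 89.4 CPM in the wild-type libraries.

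The sequence before the start site is shown for the score genes, because it carries a motif they share. Promoter windows of 250 bases came from the RefSeq table for GRCm38.p6, which held 4 of the 5 score genes; Tnnt3 is named only. The E-box CAGCTG, which reads the same on both strands, is in capitals, and the windows run from 5′ to 3′ on the strand of the gene and end at the base before the RefSeq start site. They lie at chr7:19410844-19411093 on the plus strand for Ckm, chr8:123894776-123895025 on the minus strand for Acta1, chr11:67237562-67237811 on the plus strand for Myh4 and chr7:127211358-127211607 on the plus strand for Mylpf.
Ckm: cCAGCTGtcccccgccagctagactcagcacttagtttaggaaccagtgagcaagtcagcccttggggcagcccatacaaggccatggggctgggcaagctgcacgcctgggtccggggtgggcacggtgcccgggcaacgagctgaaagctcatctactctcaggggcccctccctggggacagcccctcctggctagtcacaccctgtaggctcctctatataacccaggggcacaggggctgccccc
Acta1: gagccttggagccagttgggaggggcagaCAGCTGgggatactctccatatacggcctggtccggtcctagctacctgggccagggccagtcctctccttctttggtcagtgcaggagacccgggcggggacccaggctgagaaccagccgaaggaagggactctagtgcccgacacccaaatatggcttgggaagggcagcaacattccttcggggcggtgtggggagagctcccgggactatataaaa
Myh4: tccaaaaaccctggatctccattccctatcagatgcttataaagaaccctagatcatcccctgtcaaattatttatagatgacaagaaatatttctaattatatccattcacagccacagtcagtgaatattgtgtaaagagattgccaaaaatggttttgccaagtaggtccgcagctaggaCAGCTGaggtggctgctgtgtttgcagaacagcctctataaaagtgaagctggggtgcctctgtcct
Mylpf: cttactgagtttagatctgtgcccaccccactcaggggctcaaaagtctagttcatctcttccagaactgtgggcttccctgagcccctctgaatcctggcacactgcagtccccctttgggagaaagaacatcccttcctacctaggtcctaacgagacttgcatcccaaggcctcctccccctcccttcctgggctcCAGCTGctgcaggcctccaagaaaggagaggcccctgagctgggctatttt

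Each of these windows held CAGCTG once, beginning 249 bases before the start in Ckm, 221 in Acta1, 67 in Myh4 and 51 in Mylpf. The letters CAGCTG occurred in 13.0% of all 32851 windows of the table. Of the 73 genes of the muscle lists described below that were higher in the muscle-rich tumors, 51 had a window and 25 of these, 49.0%, held the motif in at least 1 window, the 4 shown included. The share was 26.1% of 46 genes for the other members of the muscle lists and 16.2% of 390 genes for the lists outside skeletal muscle, beside 14.7% of all 27025 genes. A match describes the letters and is not a measured binding site, and the motif was chosen with the results known.

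The score genes themselves encode core parts of the contractile and energy apparatus. Ckm, the muscle creatine kinase that rebuilds ATP during contraction, was at 174, 211 and 169 CPM in tumors 3, 4 and 5 and at 3.65, 0.722 and 9.66 CPM in tumors 1, 2 and 6. Acta1, skeletal alpha actin, was at 763, 326 and 458 CPM against 15.6, 8.67 and 91.9 CPM. Myh4, the myosin heavy chain of the fastest fibres, was at 167, 264 and 121 CPM against 1.65, 0.263 and 2.36 CPM. None of these values overlapped between the sets, and in all 3 genes tumor 6 was the highest of the muscle-poor tumors. Mylpf, the fast myosin regulatory light chain, was at 125, 72.0 and 184 CPM against 5.65, 3.51 and 16.5 CPM. Tnnt3, fast troponin T, was at 185, 163 and 706 CPM against 6.36, 3.02 and 23.7 CPM. These 5 genes chose the sets, and their ratios of mean CPM, from 13.3 for Acta1 to 129 for Myh4, follow from that choice. Acta1 has close relatives in the other actin genes, and reads could be split among them.

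Across all genes, 14616 with a mean of at least 1 CPM over the 6 wild-type libraries were compared. A gene was counted as higher or lower where the 3 values of each set did not overlap and the mean log2 CPM differed by at least 1. By this rule 246 genes, 1.68%, were higher in the muscle-rich tumors and 135 genes, 0.924%, were lower, while the median difference over all genes was 0.01 on the log2 scale. Of the 246 higher genes, 73 were among the 132 genes of 10 skeletal muscle lists, 2 were in other lists and 171 were in no list. The 73 hold the 5 score genes, which the rule made higher, and 68 of the other 127 genes of the muscle lists. None of the 135 lower genes was in a muscle list, and 8 were in the lists for stroma, immune cells, metabolism or tumor cells. In 120 of the 246 higher genes the muscle-poor mean was under 1 CPM, so those genes passed the expression filter only through the muscle-rich tumors. The muscle lists together held 0.890%, 0.747% and 1.05% of the counts of tumors 3, 4 and 5 and 0.382%, 0.383% and 0.406% of those of tumors 1, 2 and 6, the latter largely from list genes that other cells also use, such as Tpm1.

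**Figure D2:**
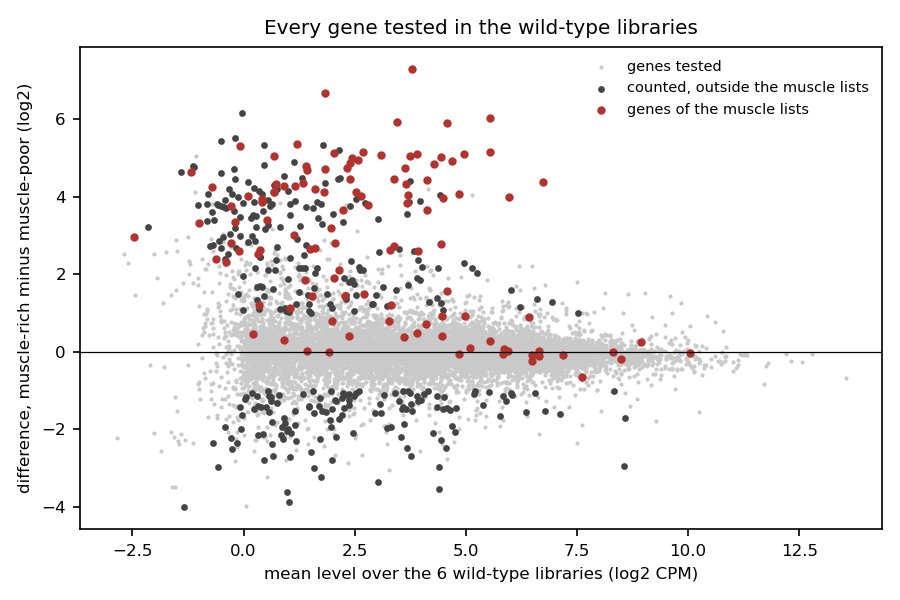
Each point is a gene, with its mean level over the 6 wild-type libraries (log2 CPM) on the horizontal axis and the difference between muscle-rich and muscle-poor tumors (log2) on the vertical axis. Genes of the muscle lists are red and reach above 6, and genes outside those lists that were counted as higher or lower are dark gray.

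Genes of the fast fibre were high in all 3 muscle-rich tumors. Of 12 fast-fibre genes that are not in the score, 10 were higher and none lower, and the median difference was 4.59. All 12 passed the filter, 2 of them only through the muscle-rich tumors. Atp2a1, the calcium pump of the fast sarcoplasmic reticulum, was at 257, 236 and 906 CPM in tumors 3, 4 and 5 against 5.18, 2.79 and 12.7 CPM in tumors 1, 2 and 6. Mybpc2, fast myosin-binding protein C, was at 85.4, 126 and 57.9 CPM against 1.10, 0.755 and 2.87 CPM. Tnni2, fast troponin I, was at 78.0, 75.7 and 320 CPM against 2.31, 1.74 and 12.4 CPM. For each of these genes the lowest muscle-rich value was several times the highest muscle-poor value. Pvalb, the calcium buffer parvalbumin, was at 93.6, 39.4 and 15.5 CPM against 1.57, 0.394 and 1.65 CPM, and was lowest in tumor 5 among the muscle-rich tumors although that tumor was highest for Atp2a1 and Tnni2. The 2 members that were not counted were Myh2 and Tpm1, a tropomyosin found in many cell types, which was at 737 to 1285 CPM in the muscle-rich tumors and 986 to 1224 CPM in the muscle-poor ones.

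The frame of the sarcomere and the calcium release machinery followed the same split. Of 20 genes of the sarcomere frame 16 were higher, with a median difference of 4.06 over the 19 that passed the filter. Of those 19, 3 passed only through the muscle-rich tumors. Ttn, the giant spring protein titin, was at 200, 88.7 and 348 CPM in tumors 3, 4 and 5 against 2.55, 2.30 and 24.4 CPM in tumors 1, 2 and 6. Tcap, which caps titin at the Z-disc, was at 78.1, 54.0 and 112 CPM against 1.96, 0.656 and 8.54 CPM. In both genes tumor 5 was highest and tumor 4 lowest of the muscle-rich tumors. Of 15 genes of excitation–contraction coupling 13 were higher, with a median difference of 3.46 over the 14 that passed the filter and 2.82 over all 15. Of those 14, 6 had a muscle-poor mean under 1 CPM and so passed only through the muscle-rich tumors. Ryr1, the calcium release channel, was at 54.7, 52.0 and 231 CPM against 1.29, 1.97 and 5.84 CPM. Trdn, triadin, which anchors that channel, was at 27.2, 13.4 and 38.1 CPM against 0.275, 0.361 and 2.23 CPM. Des, the intermediate filament desmin of all muscle types, was at 156, 184 and 544 CPM against 7.34, 13.7 and 37.7 CPM.

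The slow-fibre genes divided the muscle-rich tumors among themselves. Only 5 of 13 slow-fibre genes were counted as higher. The median difference over the 12 that passed the filter was 2.01, or 0.96 without tumor 3. Of those 12, 5 passed only through the muscle-rich tumors. Myh7, the slow myosin heavy chain, was at 122 CPM in tumor 3 and at 0.912 and 2.498 CPM in tumors 4 and 5, against 0.235, 1.38 and 0.0675 CPM in tumors 1, 2 and 6. Myl2, the slow regulatory light chain, was at 44.1 CPM in tumor 3 and at 0.684 and 0.298 CPM in tumors 4 and 5, against 0.628, 0.164 and 0.270 CPM. Both genes were far higher in tumor 3 than in the other muscle-rich tumors, and tumor 4 for Myh7 and tumor 5 for Myl2 lay within the range of the muscle-poor tumors. Myl3, the slow essential light chain, was counted as higher, at 23.1, 0.130 and 0.820 CPM against 0.118, 0.0656 and 0.101 CPM, and was also led by tumor 3. The lack of overlap for Myl3 rests on 0.130 CPM in tumor 4 against 0.118 CPM in tumor 1. Each is only a few counts, too few to tell apart. Tnnt1, slow troponin T, was at 42.9, 3.32 and 5.41 CPM against 1.96, 1.54 and 2.90 CPM, and Tnni1, slow troponin I, was at 29.4, 5.34 and 3.09 CPM against 1.37, 2.17 and 2.90 CPM. Mybpc1, slow myosin-binding protein C, differed from these in its order, with 81.2, 24.3 and 90.4 CPM against 1.96, 1.08 and 9.46 CPM. Myh6, the alpha heavy chain best known from heart muscle, had 244 counts in tumor 3 and at most 6 in each of tumors 1, 2, 4, 5 and 6. The heart genes Nppa and Myl7 had at most 1 and 2 counts in any wild-type library. Other heart genes were present in every wild-type tumor. Tnni3, cardiac troponin I, was at 2.38, 4.27 and 4.81 CPM in tumors 3, 4 and 5 against 1.96, 1.44 and 2.97 CPM. Nppb, a natriuretic peptide of the heart, was at 10.7, 8.86 and 68.1 CPM against 13.1, 18.9 and 16.6 CPM. Neither gene was highest in tumor 3. The source of the Myh6 counts in that tumor was not tested.

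The 6 myosin heavy chain genes Myh4, Myh1, Myh2, Myh7, Myh3 and Myh8 were compared per kilobase of exon. Their sum was 90.1, 51.3 and 32.2 CPM per kb in tumors 3, 4 and 5 and 1.59, 0.879 and 4.92 CPM per kb in tumors 1, 2 and 6. Tumor 4 was mostly Myh4, at 85.7% of the sum, with 12.5% Myh1, 1.31% Myh2 and 0.207% Myh7. Tumor 5 had 62.5% Myh4, 33.9% Myh1, 1.73% Myh2 and 0.899% Myh7. Tumor 3 had a mixed set with 30.8% Myh4, 42.7% Myh1, 10.6% Myh2 and 15.7% Myh7, so it carried heavy chains of fast and slow fibres together. Tumor 6, the muscle-poor tumor with the most muscle RNA, had 7.98% Myh4, 49.7% Myh1 and 36.0% Myh2. Tumor 1 was similar, with 17.3% Myh4, 44.4% Myh1 and 32.9% Myh2. Myh4 is a score gene, so a low Myh4 share in muscle-poor tumors partly follows from the choice of sets. In tumors 1 and 2 the shares rest on 270 and 188 counts over all 6 genes. Embryonic Myh3 and neonatal Myh8 stayed low in counts, at 5 to 37 and 8 to 61 over the 6 libraries. The fast and developmental heavy chain genes are near-identical neighbors in 1 cluster, so reads could be split among them.

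**Figure D3:**
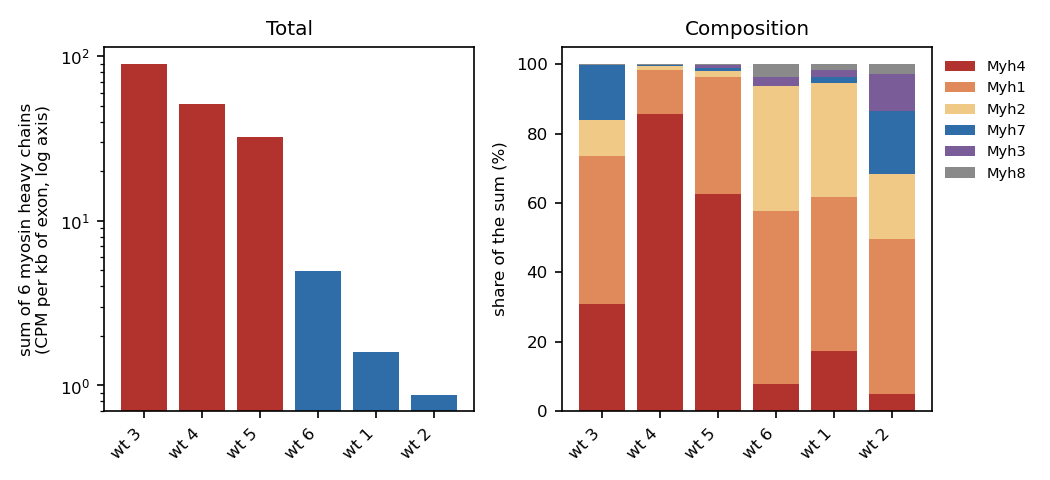
The left panel gives the summed level of 6 myosin heavy chain genes (CPM per kilobase of exon, log axis) in each wild-type tumor (wt), muscle-rich in red and muscle-poor in blue, and the right panel the share of each gene in that sum (%). Tumor 4 is 85.7% Myh4, tumor 3 is the only muscle-rich tumor with a visible Myh7 share, 15.7%, and tumor 6 holds 36.0% Myh2.

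Enzymes and transporters of energy supply separated by isoform. Of 18 muscle energy genes 13 were higher, with a median difference of 3.67 over the 17 that passed the filter, of which 8 passed only through the muscle-rich tumors. Mb, myoglobin, the oxygen store of muscle, was at 108, 23.4 and 97.3 CPM in tumors 3, 4 and 5 against 4.43, 1.87 and 13.5 CPM in tumors 1, 2 and 6. Pygm, muscle glycogen phosphorylase, was at 42.7, 51.2 and 120 CPM against 1.88, 1.18 and 5.54 CPM. For 14 steps of metabolism or contraction the muscle form was set beside a form used in other cells. At 2 of the steps the muscle form, Ckm or Acta1, is a score gene. At the other 12 steps the muscle form was counted as higher at 8 and the other form at 0, and the median differences were 4.08 for the muscle forms and -0.29 for the others. Pygm made up 93.0%, 90.9% and 95.1% of Pygm plus its liver form Pygl per kilobase in tumors 3, 4 and 5, against 31.3%, 16.5% and 28.8% in tumors 1, 2 and 6. Pgam2, muscle phosphoglycerate mutase, made up 42.2%, 45.1% and 52.9% of Pgam2 plus Pgam1, against 0.709%, 0.406% and 6.30%. The step stayed present in every tumor through the common form: Pgam1 was at 40.8, 30.7 and 49.2 CPM against 51.8, 57.0 and 41.5 CPM. The glucose transporter Slc2a4, which moves to the surface in response to insulin, was at 7.44, 6.29 and 47.9 CPM against 0.275, 0.460 and 1.96 CPM, while the common transporter Slc2a1 was at 80.4, 59.6 and 181 CPM against 112, 279 and 67.3 CPM. Pfkm, Cox7a1, Slc25a4 and Cpt1b were the muscle forms not counted. Cpt1b, which brings fatty acids into mitochondria, did not overlap and differed by 1.08, but its mean was under 1 CPM. Pfkm came near, at 109, 126 and 114 CPM against 57.9, 62.2 and 67.8 CPM, without overlap but under 2-fold on the log2 means.

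Of 14 genes listed as muscle-enriched mitochondrial forms 4 were higher: Cox6a2, Cox8b, Ucp3 and Fabp3. The last of these, a fatty acid-binding protein, is cytosolic and not itself a mitochondrial form. Of the 13 that passed the filter, 4 did so only through the muscle-rich tumors, among them Cox8b, Ucp3 and Fabp3. Cox6a2, the muscle form of a cytochrome oxidase subunit, was at 22.6, 13.9 and 54.8 CPM in tumors 3, 4 and 5 against 0.549, 0.361 and 3.34 CPM in tumors 1, 2 and 6. Its common counterpart Cox6a1 was at 103, 130 and 104 CPM against 149, 144 and 117 CPM.

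Of 15 satellite cell and myogenic genes 4 were higher, Myod1, Myog, Myf6 and Cdh15, and 5 did not pass the expression filter. Of the 10 that passed, 5 did so only through the muscle-rich tumors, among them all 4 counted genes. Myod1, the factor that commits cells to muscle, had 26, 32 and 228 counts in tumors 3, 4 and 5 and 0, 0 and 3 counts in tumors 1, 2 and 6. Myog, which drives the last step of differentiation, had 100, 116 and 401 counts against 11, 26 and 28. Myf6, the factor of mature fibres, had 101, 134 and 821 counts against 11, 7 and 14. All 3 genes were several times higher in tumor 5 than in tumors 3 and 4. Myf5, the earliest of these factors, did not pass the filter and had 2, 1 and 18 counts against 1, 1 and 1. Pax7, the marker of satellite cells, the stem cells of muscle, had 5, 2 and 1 counts against 0, 0 and 1, too few to compare. Pax3, a related factor of muscle and pigment cell precursors, had 278 counts in tumor 5 and at most 3 elsewhere among the wild type. Igfn1, a protein of the sarcomere's Z-disc region, was also highest there, at 11.6, 34.5 and 115 CPM against 0.471, 0.0985 and 0.439 CPM.

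Of 10 genes of the neuromuscular junction 0 were counted, and 5 did not pass the expression filter and could not be. Over all genes 1.68% were counted as higher and 0.924% as lower. The median difference was 0.72 over the 5 that passed and 1.30 over all 10. Chrna1, a subunit of the muscle acetylcholine receptor, was at 68.2, 62.5 and 207 CPM in tumors 3, 4 and 5, at 91.0, 261 and 47.1 CPM in tumors 1, 2 and 6, and at 224 to 742 CPM in the Arf6-null tumors. It was thus high in tumors with little other muscle RNA. Musk, the kinase that organizes the junction, was at 0.836, 0.978 and 5.07 CPM against 0.118, 0.164 and 0.878 CPM.

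Beyond skeletal muscle, 36 lists of other cell types and processes were examined, with 551 genes outside the muscle lists. Of these, 489 passed the expression filter, 2 were counted as higher (0.409%) and 8 as lower (1.64%), beside 1.68% and 0.924% of all genes. On a list score, the mean log2 CPM of the members that passed, 8 of the 9 muscle lists other than the score genes put tumors 3, 4 and 5 in the top 3 places. Many members of these lists passed only through the muscle-rich tumors, so this order describes the split and does not support it. No list outside skeletal muscle did so, and 1, the mitochondrially encoded genes, put them in the bottom 3. The largest median outside skeletal muscle was that of the adipocyte list, at 1.91 over the 11 members that passed the filter and 1.257 over all 16.

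**Figure D4:**
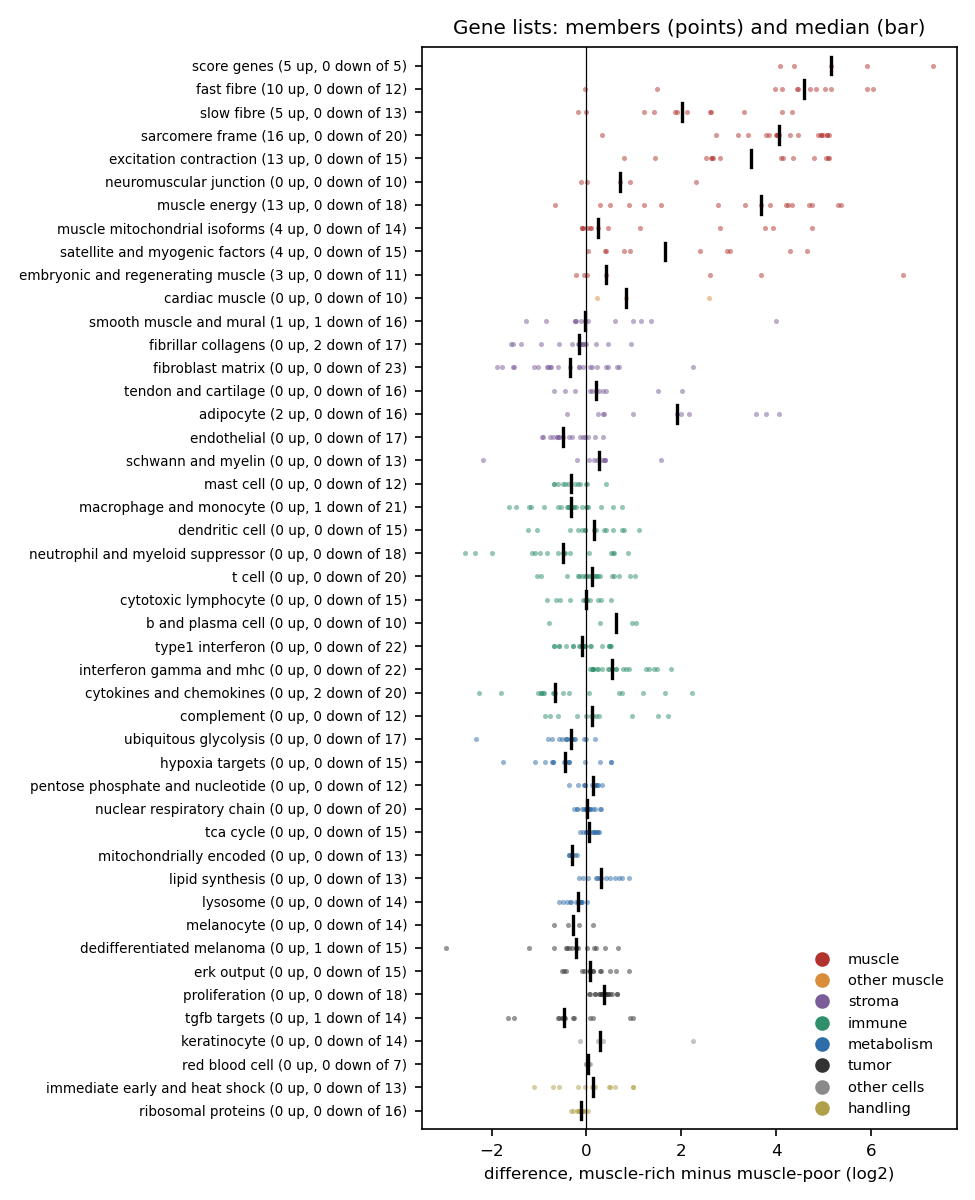
Points are the members of each gene list that passed the expression filter, and the black bar is their median, with the difference between muscle-rich and muscle-poor tumors (log2) on the horizontal axis; labels give the members counted as higher (up) or lower (down). The sarcomere frame has its median at 4.06, and the medians of the metabolic lists lie between -0.46 and 0.31.

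Fat cell genes were not counted apart from Car3 and Plin4. Car3, carbonic anhydrase 3, which is abundant in fat and in slow muscle, was at 134, 52.1 and 95.2 CPM in tumors 3, 4 and 5 against 4.002, 0.755 and 43.3 CPM in tumors 1, 2 and 6. Plin4, a lipid droplet coat protein of fat and muscle, was at 7.65, 9.65 and 35.4 CPM against 0.314, 0.788 and 4.86 CPM. These were the 2 members of 16 that were counted. Among genes more particular to fat cells tumor 6 was also high: Adipoq, the hormone adiponectin, was at 1.76, 4.04 and 2.76 CPM against 0.235, 0.361 and 2.60 CPM, and Cfd, adipsin, was at 11.9, 14.4 and 35.7 CPM against 0.157, 0.361 and 25.4 CPM. On the list score the order was tumor 5, then 6, 4, 3, 2 and 1, so fat genes were low in tumors 1 and 2 rather than in the muscle-poor set as a whole.

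Matrix and fibroblast genes varied widely, and few were counted. Of 117 stromal genes outside the muscle lists 101 passed the filter. Among these, 2 were counted as higher (1.98%), Car3 and Plin4, and 3 as lower (2.97%), Col5a3, Col15a1 and Kcnj8. The shares over all genes were 1.68% and 0.924%. Col15a1, a collagen of basement membrane zones, was at 158, 167 and 19.4 CPM in tumors 3, 4 and 5 against 272, 217 and 243 CPM in tumors 1, 2 and 6. Col5a3, a minor fibrillar collagen, was at 41.4, 51.4 and 50.5 CPM against 79.6, 242 and 138 CPM. Kcnj8, a potassium channel subunit of pericytes, was at 7.36, 5.64 and 9.06 CPM against 12.6, 35.7 and 11.96 CPM. The main collagens overlapped: Col1a1 was at 1334, 1332 and 656 CPM against 1456, 273 and 3448 CPM. Fn1, fibronectin, was lower without overlap, at 1755, 3720 and 2474 CPM against 4478, 4848 and 4071 CPM. Its difference of -0.82 was under the 2-fold used for counting, and 8 of the 23 fibroblast matrix genes had a positive difference. Dcn, the small proteoglycan decorin, was at 186, 387 and 526 CPM against 2511, 1435 and 426 CPM, so that tumor 6 fell among the muscle-rich tumors. The fibrillar collagen score was highest in tumors 6 and 1, at 8.60 and 8.42, and lowest in tumor 5, at 7.01.

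Tnc, tenascin C, a matrix protein that melanoma and stromal cells both make, had the largest difference of the 8 list genes that were lower in the muscle-rich tumors. It was at 90.7, 367 and 75.2 CPM in tumors 3, 4 and 5 against 1213, 838 and 1154 CPM in tumors 1, 2 and 6, a difference of -2.96. Pmepa1, a target of TGF-beta signaling, was at 116, 105 and 22.03 CPM against 218, 125 and 239 CPM. In the Arf6-null tumors, which had little muscle RNA, Tnc was at 73.9 to 639 CPM and Pmepa1 at 19.5 to 118 CPM, both below the muscle-poor wild-type tumors. Low Tnc was therefore found in tumors with and without muscle RNA.

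Of 119 metabolic genes of all cells 113 passed the filter, and 0 were counted in either direction, beside 1.68% and 0.924% of all genes. The glycolysis list had a median difference of -0.33, and its score was 6.60, 6.85 and 7.79 in tumors 3, 4 and 5 against 7.31, 8.08 and 7.24 in tumors 1, 2 and 6. Aldoa, the aldolase of muscle and most other cells, was at 709, 783 and 1390 CPM against 777, 1275 and 782 CPM. Tumors 2 and 5 were thus the high ones, 1 from each set. Targets of hypoxia had the same high pair, with scores of 6.14 in tumor 2 and 6.16 in tumor 5 and of 4.51 to 5.24 in the other 4. Of the 15 hypoxia targets 3 had a positive difference. P4ha1 was lower without overlap, at 182, 109 and 180 CPM against 449, 190 and 191 CPM. Mif was lower too, at 78.8, 80.4 and 118 CPM against 131, 210 and 119 CPM, and both differences were under 2-fold. The nuclear genes of the respiratory chain were level, with scores from 6.86 to 7.05 over the 6 libraries. The mitochondrially encoded genes were lower in the muscle-rich tumors, at scores of 9.89, 9.85 and 9.65 against 10.2, 10.1 and 9.99, a difference under the 2-fold used for counting.

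Immune genes did not share 1 order of the tumors: 5 of 11 immune lists had tumors 5 and 6, 1 from each set, in the top 2 places, and 6 did not. Of 184 immune genes 173 passed the filter, and 0 were counted as higher and 3 as lower (1.73%), beside 1.68% and 0.924% of all genes. The 3 lower genes were Trem2, Ccl7 and Cxcl1. Trem2, a receptor of lipid-laden macrophages, was at 14.9, 17.8 and 13.0 CPM in tumors 3, 4 and 5 against 43.3, 20.4 and 44.1 CPM in tumors 1, 2 and 6. Ccl7, a chemokine for monocytes, was at 6.44, 12.3 and 11.7 CPM against 51.0, 110 and 19.05 CPM. Cxcl1, a chemokine for neutrophils, was at 0.501, 0.880 and 1.04 CPM against 1.14, 11.8 and 1.69 CPM. The interferon-gamma and MHC list had a median difference of 0.54, and all of its 22 members had a positive difference without being counted. Its score was 8.49 in tumor 5 and 7.85 in tumor 6 and 5.20 to 6.15 in the other 4. H2-D1, an MHC class I heavy chain, was at 1197, 1369 and 5133 CPM against 642, 1273 and 2088 CPM. Complement genes had the same pair on top, with scores of 6.23 in tumor 5 and 5.89 in tumor 6 and 4.03 to 4.34 in the rest. T cell genes were highest in tumor 6, neutrophil genes in tumor 2 and mast cell genes in tumor 4, with list scores of 4.20, 4.20 and 4.94.

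**Figure D5:**
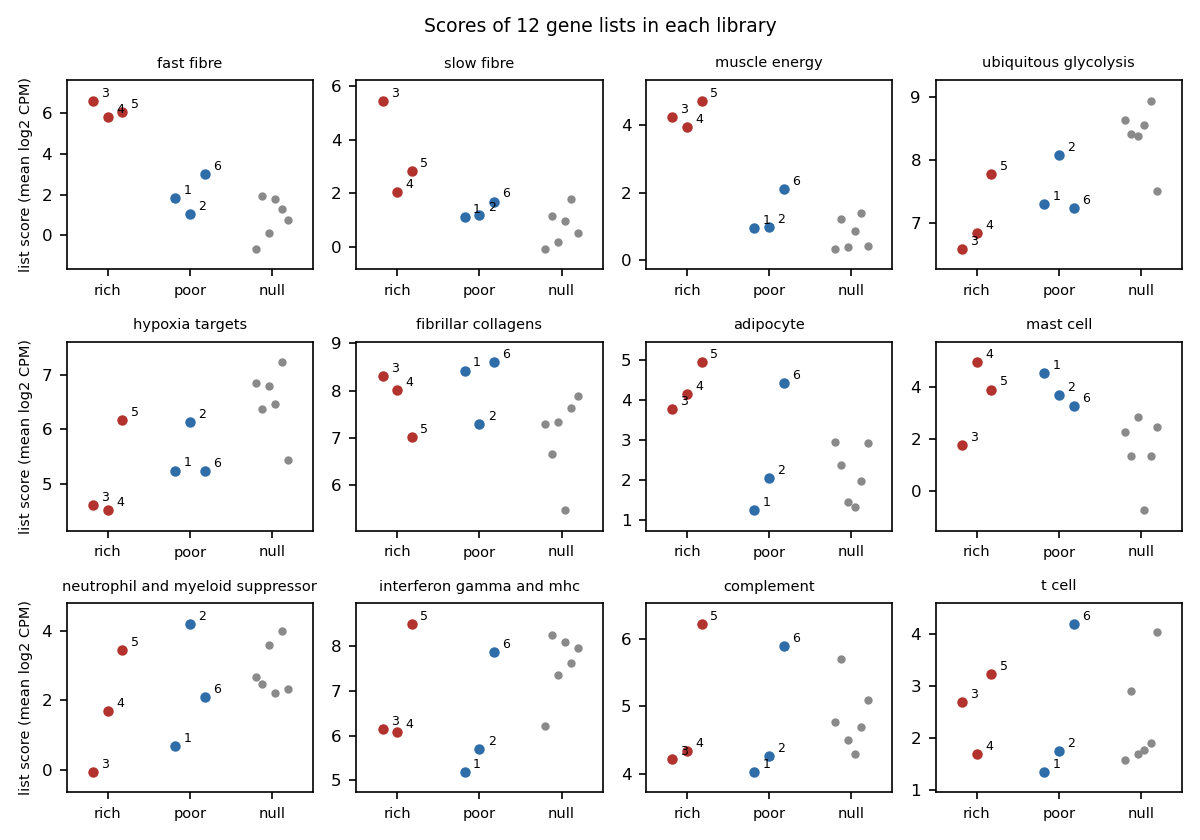
Each panel gives a list score (mean log2 CPM of the members) in the muscle-rich and muscle-poor wild-type tumors, numbered, and in the 6 Arf6-null tumors in gray. The 3 muscle lists in the first 3 panels separate the wild-type sets, while interferon-gamma and MHC genes are highest in tumors 5 and 6, at 8.49 and 7.85, and neutrophil genes in tumor 2, at 4.20.

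Of 76 genes of the tumor cell program 66 passed the filter. Only Tnc and Pmepa1 were counted, both as lower (3.03%, beside 0.924% of all genes). Ccnd1, the cyclin induced by ERK signaling, was at 777, 1237 and 502 CPM in tumors 3, 4 and 5 against 1267, 1181 and 798 CPM in tumors 1, 2 and 6. All 18 proliferation genes had a positive difference, with a median of 0.37, and none was counted. Mki67, a marker of cycling cells, was at 138, 173 and 80.1 CPM against 106, 53.2 and 108 CPM.

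A further 171 higher genes were in no list. The 12 with the largest difference and a mean of at least 10 CPM included Epha7, Mylk2, Xirp1, Eef1a2, Nrap, Adamdec1, Myo18b, Pdlim3, Klhl41, Aldh1a2 and Ankrd23. Mylk2, the skeletal myosin light chain kinase, was at 19.9, 20.4 and 49.4 CPM in tumors 3, 4 and 5 against 0.314, 0.295 and 2.80 CPM in tumors 1, 2 and 6. Nrap, which helps to assemble myofibrils, was at 68.0, 31.4 and 108 CPM against 1.84, 1.51 and 7.97 CPM. Eef1a2, the translation factor form of muscle and neurons, was at 16.1, 16.2 and 33.2 CPM against 0.510, 0.558 and 2.16 CPM. In the Arf6-null tumors these 3 genes were at most at 3.77 CPM.

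Among the 12, Epha7, Adamdec1 and Aldh1a2 had another pattern in the Arf6-null tumors. Epha7, an ephrin receptor, was at 23.9, 19.1 and 23.1 CPM in tumors 3, 4 and 5 against 0.118, 0.0328 and 8.98 CPM in tumors 1, 2 and 6. Adamdec1, a protease of macrophages and stromal cells, was at 7.52, 18.3 and 30.6 CPM against 0.275, 0.164 and 6.35 CPM. Aldh1a2, an enzyme that makes retinoic acid, was at 36.2, 12.7 and 15.5 CPM against 1.57, 0.164 and 7.84 CPM. In the Arf6-null tumors, which had little muscle RNA, their medians were 11.1, 7.001 and 8.69 CPM, above the level of tumor 6 and far above tumors 1 and 2. Each median was below the lowest muscle-rich value. The Arf6-null values ranged from 0 to 20.3 CPM for Epha7, 4.37 to 28.0 CPM for Adamdec1 and 1.06 to 13.2 CPM for Aldh1a2. Whether these 3 genes are linked to muscle RNA was not tested.

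The Arf6-null libraries played no part in the score, but the genes below were counted because a wild-type set stood above the other. Other libraries can fall below that set for this reason alone, and the same shares over all genes were not taken. The counts are a description and support nothing. Of the 68 higher genes in muscle lists that are not score genes, 64 were below the lowest muscle-rich value in all 6 Arf6-null tumors. This held for 129 of the 171 higher genes in no list, and in 16 of these 171 the Arf6-null median reached or passed the lowest muscle-rich value. Of the 135 lower genes, 101 had an Arf6-null median below all 3 muscle-poor values. Tumor 5 was the highest muscle-rich tumor in 48 of the 68 genes, and tumor 6 was the highest muscle-poor tumor in 55.

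The lower genes in no list were often led by a single muscle-poor tumor. Serpinb2, an inhibitor of plasminogen activation, was at 156 CPM in tumor 2 but at 1.22 and 1.59 CPM in tumors 1 and 6, against 0.334, 1.04 and 0.335 CPM in tumors 3, 4 and 5. Fcrls, a receptor of macrophage-like cells, was at 299 CPM in tumor 1 and at 35.8 and 35.3 CPM in tumors 2 and 6, against 9.19, 21.4 and 1.12 CPM. Tfpi2, a protease inhibitor of the matrix, was at 39.6, 222 and 23.6 CPM against 10.4, 9.74 and 4.17 CPM. In other genes all 3 muscle-poor tumors stood clear: Tmem8 was at 65.3, 74.6 and 35.1 CPM against 5.89, 9.61 and 17.4 CPM. Bhlhe41, a transcription factor of the clock and of hypoxia, was at 28.8, 13.5 and 18.6 CPM against 6.48, 8.08 and 2.42 CPM. Col23a1, a membrane collagen, was at 24.9, 76.0 and 88.9 CPM against 10.7, 18.6 and 11.4 CPM.

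The comparison the labels do make, Arf6-null against wild type, was run with and without the 3 muscle-rich tumors. With all 12 libraries, 95 genes of 16225 were higher in Arf6-null tumors (0.586%) and 91 lower (0.561%) at a Benjamini-Hochberg adjusted p under 0.05 in the edgeR quasi-likelihood test. Of 105 muscle-list genes tested, 4 were lower and 0 higher: Pvalb, Cmya5, Jsrp1 and Cpt1b. Each of the 4 calls held in 3 of the 12 fits that left out 1 library, those without wild-type tumor 2, wild-type tumor 5 or Arf6-null tumor 6. The median log2 fold change over the 105 genes was -2.95, beside -0.03 over all genes tested. Without tumors 3, 4 and 5, 14 of 16992 genes were higher (0.0824%) and 21 lower (0.124%). Of 109 muscle-list genes then tested, 0 were called by edgeR, and the median log2 fold change was -0.53. An unadjusted edgeR p under 0.05 was found for 16 of the 109, beside 2596 of all 16992 genes. With all 12 libraries it was found for 71 of the 105 muscle-list genes, beside 3799 of all 16225 genes. The tumors left out were chosen for their muscle RNA, so the smaller change of muscle genes follows from that choice and supports nothing. The labels do not say that tumors came from separate animals, so these p-values measure only the spread between the samples.

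Pvalb changed by -7.22 ± 1.44 (log2 fold change with standard error, 6 tumors per genotype, adjusted p = 0.0392 in edgeR). Ckm, with high values in 3 of 6 wild-type tumors, was not called, at -5.68 ± 1.30 (edgeR adjusted p = 0.0562). Car3 was called lower (-4.88 ± 1.02, edgeR adjusted p = 0.0448). Arf6 itself was called in both comparisons, at -2.60 ± 0.18 (edgeR adjusted p = 0.000101) and at an adjusted p of 0.00594 without the muscle-rich tumors. Tkt, transketolase of the pentose phosphate pathway, was also called in both, at 0.91 ± 0.14 (edgeR adjusted p = 0.0213) and 0.99 ± 0.15 (adjusted p = 0.0483). These calls moved with single libraries: Pvalb, Car3 and Cpt1b were called in 3 of 12 fits that each left out 1 library (without wild-type tumor 2, without wild-type tumor 5 and without Arf6-null tumor 6), Tkt in 9 of 12 (not without wild-type tumor 1, 3 or 6) and Arf6 in 12 of 12.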

How the data were processed

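RNA was sequenced from 12 mouse tumors. A Direct-zol kit gave the RNA and the TruSeq Stranded mRNA kit the libraries, per the labels' protocols. The deposited table holds raw counts per gene, which the authors made with STAR 2.7.3a and featureCounts 1.6.3 on GRCm38 (mm10), per the submitters' processing notes, which also name DESeq2 1.26.0. Its strand setting was not given in the sources used here, and neither was its annotation release.

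Symbols were found for 55141 of 55487 identifiers, with coordinates and exon lengths from GENCODE M21 (GRCm38). The rest held up to 0.0394% of a library's counts. The score used CPM from column totals; all other CPM used totals under TMM scaling (edgeR) of the 12 libraries. Differences are of mean log2 CPM with a prior count of 2 in R 4.3.3. The genotype test was the quasi-likelihood test of edgeR 4.0.16, after filterByExpr (minimum of 10 counts), with Benjamini-Hochberg adjustment at 0.05; DESeq2 1.42.0, other scalings, filters and prior counts, and leaving out each library were tried. Standard errors of the genotype test were derived, as the absolute log2 fold change divided by the square root of the F statistic. The scripts were tested on simulated data.

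The members, the 46 gene lists and the 14 isoform pairs were chosen with earlier results of these data known. Named genes are the score genes, up to 4 members of each list with the largest counted difference (or the 2 most abundant where none was counted), up to 12 genes in no list per direction with a mean of at least 10 CPM, and the isoform pairs. Adipoq, Cfd, Col1a1, Dcn, Mb, Musk, Myf5, Myh1, Myh2, Myh3, Myh6, Myh7, Myh8 and Myl2 were added after their values were seen. So were Myl7, Nppa, Pax3, Pax7, Tpm1, Cmya5, Jsrp1 and the pigment cell genes other than Mitf and Gpnmb. Some named genes are not reported here.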

Additional observations from a re-analysis of the deposited data

Results flagged for a closer look

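Of 151 sets of 6 wild-type values that were examined, 23 had a library far from the other 5 by Dixon's gap criterion. Chance flags about 1 in 20 sets that are chosen without regard to their values. Many genes here were named for large differences or after their values were seen, so that rate does not apply to them. Levels here are log2(CPM + 1) for genes and mean log2 CPM for lists. Tumor 3 stood apart in slow-fibre and related genes, with Myh7 at 6.94 (others 0.09 to 1.81), Myl2 at 5.49, Tnnt1 at 5.46, Myl3 at 4.59 and Myh6 at 3.48, all as the highest of the 6. Tumor 5 was far above the others for Myod1 at 3.25 (others 0 to 1.06), Pax3 at 3.51, Musk at 2.60, Cdh15 at 2.48 and Myf5 at 0.741, and far below them for Col15a1 at 4.35 (others 7.32 to 8.09) and Pmepa1 at 4.53 (others 6.72 to 7.91). Tumor 2 was far above the others for Serpinb2 at 7.30 (others 0.42 to 1.37) and Cxcl1 at 3.68 (others 0.59 to 1.43).

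Tumor 4 was above the others for the pentose phosphate and nucleotide list at 6.02 (others 5.57 to 5.72) and for Slc25a4, the ADP/ATP carrier, at 9.38 (others 8.82 to 8.99). Tumor 6 was below the others for the ERK output list at 6.13 (others 6.73 to 6.999) and the TCA cycle list at 6.80 (others 6.94 to 7.02). For genes with at most 5 counts in any wild-type library the criterion responds to a few counts: Pax7 at 0.274 in tumor 3, Tyr at 0.109 in tumor 1, Dct at 0.0479 in tumor 6 and Nppa and Tyrp1 at 0.0466 in tumor 2.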

How the results depend on the processing

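The counts of genes that separated the muscle-rich from the muscle-poor tumors depended on the filter and on single libraries. Without an expression filter 511 genes were higher and 283 lower; with a mean of 10 CPM, 81 and 55; at 2 or more on the log2 scale, 190 and 37. Leaving out 1 library gave 277 to 731 higher and 181 to 394 lower genes, with 419 higher without tumor 4 and 731 without tumor 6, and with 208, 282, 320, 209 and 394 lower without tumors 3, 4, 5, 1 and 6. Fewer samples make non-overlap easier to meet. With 1 library left out 72 to 81 muscle-list genes were higher, beside 73 with all 6 libraries and 41 with a mean of 10 CPM. CPM from column totals raised the median difference over all genes from 0.01 to 0.07 and gave 258 higher and 108 lower genes, 70.5% higher against 64.6%.

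With 1 library left out, the median difference of the fast-fibre list ranged from 4.33 to 5.12, of the muscle energy list from 3.28 to 4.36, of the adipocyte list from 0.88 to 2.95 and of the interferon-gamma and MHC list from -0.32 to 1.16. Small medians also moved: pentose phosphate -0.083 to 0.22, TCA cycle -0.035 to 0.12, lipid synthesis 0.23 to 0.54, lysosome -0.55 to -0.022. The isoforms outside muscle ranged from -0.21 to -0.14, and the gap between the sets on the muscle score from 3.49 to 5.002 (the latter without tumor 6). Over all scalings, prior counts and left-out libraries, 498 list medians moved by less than the spread between replicates and 8 by more, the latter each with a library left out. Myod1 rose from a difference of 4.65 to 6.10 with a prior count of 0.5.

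In the genotype comparison DESeq2 called 969 genes higher and 1246 lower, edgeR without a filter 72 and 55 and edgeR without the muscle-rich tumors 14 and 21. Leaving out 1 library gave 13 to 388 higher and 9 to 378 lower genes, most without wild-type tumor 2, Arf6-null tumor 6 or wild-type tumor 5 (766, 672 and 537 in all), and 25 to 154 in all without any other; the cause was not tested. No paired analysis was possible because replicate numbers are in accession order and no label ties a tumor of 1 genotype to a tumor of the other.

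Under about 5 counts, as for Pax7, differences were not detectable at this depth.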

Other observations

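Of 16 genes of tendon and cartilage 11 passed the expression filter. Of these, 0 were counted between the muscle-rich and muscle-poor tumors, beside 1.68% of all genes as higher and 0.924% as lower. With so few genes, 0 is near those shares. Tnmd, tenomodulin, a membrane protein of tendon cells, had 182, 255 and 11 counts in the muscle-rich tumors 3, 4 and 5, 353, 84 and 16 counts in the muscle-poor tumors 1, 2 and 6, and 0 to 4 counts in the Arf6-null tumors. Scx, the transcription factor scleraxis of tendon precursors, had 520, 1425 and 182 counts against 1295, 159 and 645, and 161 to 641 in the Arf6-null tumors. Tnmd was lower in Arf6-null tumors by edgeR (log2 fold change -6.36, standard error 1.02, adjusted p = 0.0226), and without the muscle-rich tumors the change was -6.38 with an adjusted p of 0.0523. The call held in 10 of the 12 fits that left out 1 library, and was lost without Arf6-null tumor 1 or 2 (adjusted p = 0.0547 and 0.0642). Nppb, a natriuretic peptide of the heart that other cells can make, was at 8.86 to 68.1 CPM in wild type and 39.5 to 483 CPM in Arf6-null tumors, and so did not follow the fibre genes.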
